A study of Heterocephalus glaber with 23 samples.

Results

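The 10 genes described here are markers of the endothelial cells of the liver: PECAM1, CDH5, KDR, FLT1, TEK, TIE1, STAB1, LYVE1, ENG and CLEC4G. They were taken by symbol from a table of 16339 genes, and all 10 were found, each as 1 row, in poly(A) RNA-seq of 23 livers of the naked mole-rat (Heterocephalus glaber), a eusocial rodent in which 1 breeding pair reproduces while the workers of the colony do not. The livers fell into 4 groups, namely 6 female breeders aged 3.3 to 3.7 years, 5 female non-breeders aged 2.4 to 4.0 years, 6 male breeders aged 2.8 to 4.1 years and 6 male non-breeders aged 2.7 to 4.1 years. No strain, allele or drug distinguished the groups. According to the study's methods, breeders were workers taken out of established colonies and housed with a partner of the opposite sex until they had raised young, whereas non-breeders were litter mates that stayed behind, so that breeding status and housing cannot be told apart. The interval since the last litter was a matter of days in male breeders and of weeks in female breeders, so that within breeders sex and this interval cannot be told apart either.

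Liver sinusoids are lined by fenestrated endothelium that lacks a continuous basement membrane and clears waste molecules from blood by scavenger receptors and lectins. Larger vessels of the organ carry continuous endothelium. The markers cover both: PECAM1 and CDH5 (VE-cadherin) sit at junctions between endothelial cells, KDR and FLT1 are the receptors for vascular endothelial growth factor (VEGF), TEK and TIE1 are the angiopoietin receptor and its partner, and ENG (endoglin) is a co-receptor for ligands of the TGF-beta family. STAB1 is a scavenger receptor and LYVE1 a hyaluronan receptor, both also made by some macrophages, and CLEC4G is a C-type lectin of sinusoidal endothelium in human and mouse.

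Counts over all genes ranged between 11826665 and 22969366 reads per library, and each marker had between 32 (LYVE1) and 4509 (STAB1) reads in every library. All 10 passed the filter on low counts, which kept 12306 genes. Levels are given as CPM, read counts scaled by TMM to a common library size, and since CPM are not divided by transcript length, they are compared between livers and not between genes. Reads of the 6 female breeders were all of the shorter of 2 lengths, reads of both non-breeder groups were all of the longer one, and male breeders had 3 libraries of each. In females, read length and status therefore cannot be told apart. On the first principal component of all tested genes (26.4% of the variance), 3 libraries stood apart, with a score of 91.7 for male non-breeder 3, of 52.7 for female breeder 6 and of 43.8 for male breeder 5, the next highest score being 22.3. Many results, though not all, are given both with and without these 3 libraries.

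The markers were present in every liver. Within groups, the SD of log2 CPM was 0.24 for PECAM1 and for ENG, 0.26 for TEK, 0.28 for TIE1, 0.29 for CLEC4G, 0.35 for KDR, 0.38 for CDH5 and 0.41 for STAB1, against a median of 0.36 over all tested genes. FLT1 (0.68) and LYVE1 (0.81) varied more, and only 11.7% and 6.43% of tested genes had a larger SD than these genes. Without the 3 libraries standing apart, the SD was 0.28 for FLT1, 0.48 for LYVE1, 0.42 for STAB1, 0.34 for CDH5 and 0.33 for KDR, against a median of 0.29 over all genes, and 0.20 to 0.30 for the other 5 markers.

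**Figure D1:**
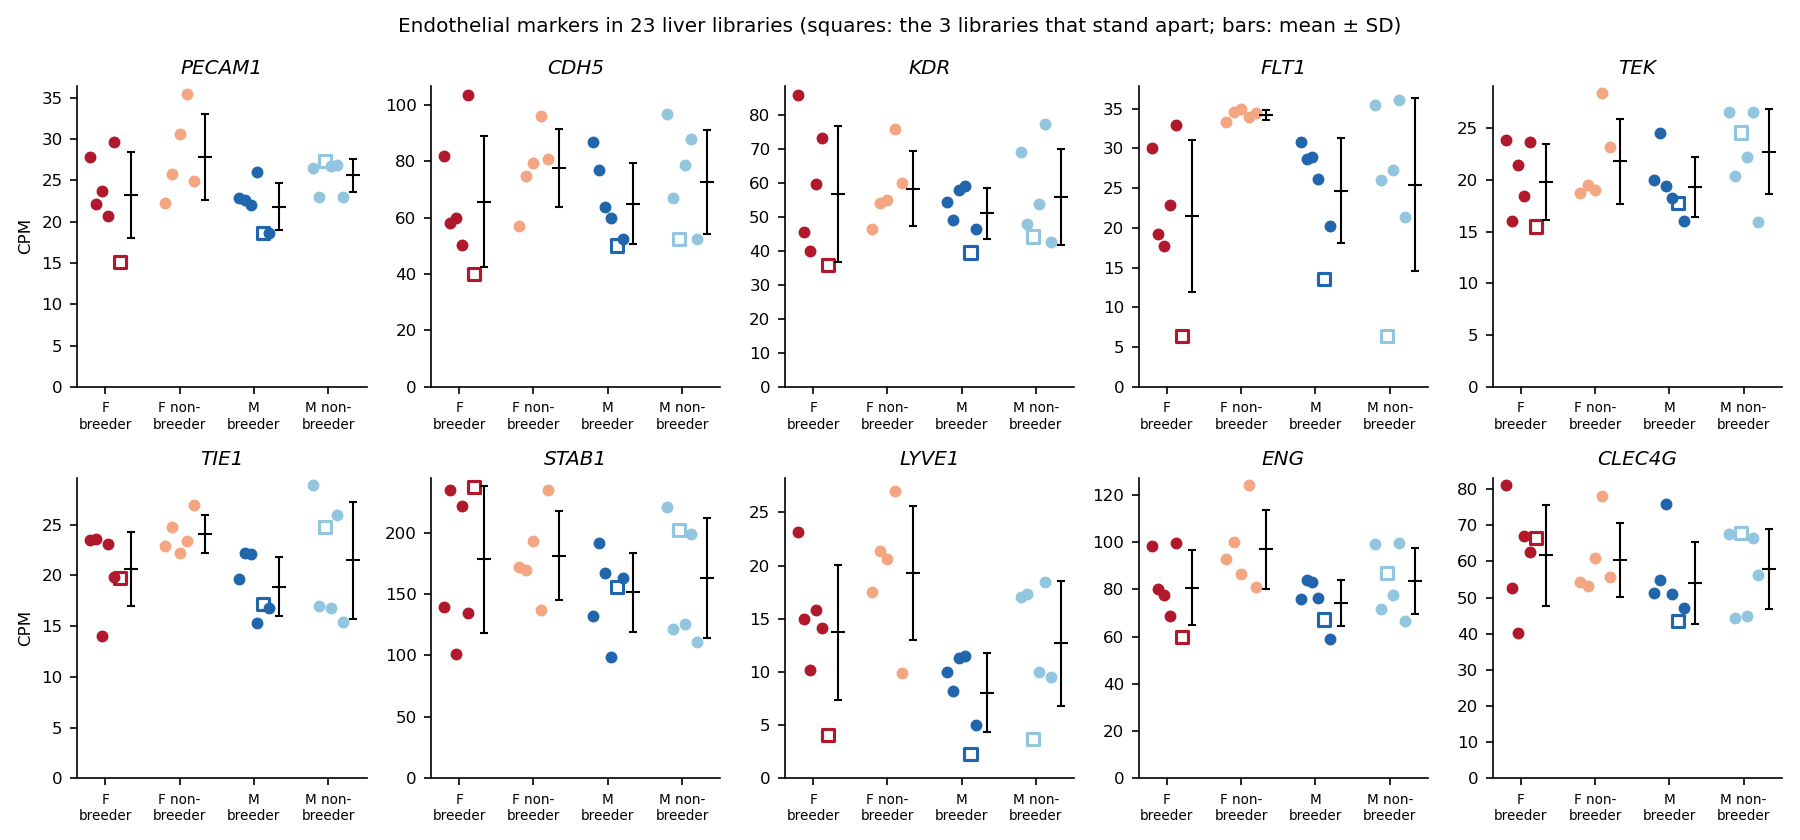
Level of each endothelial marker (CPM, linear axis starting at 0) in the 23 livers, with 1 point per liver, black bars for the mean and SD of each group, and open squares for the 3 libraries standing apart. FLT1 (6.37 to 13.5 CPM) and LYVE1 (2.31 to 4.06 CPM) are the markers in which these 3 libraries are the lowest of all livers, the next lowest livers having 17.7 CPM of FLT1 and 5.00 CPM of LYVE1.

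The first question was whether markers differed between breeders and non-breeders. Fitted levels of nearly all markers were slightly lower in breeders, but none of the 10 passed the test in females, in males or over both sexes (edgeR quasi-likelihood F-test, adjusted p at or above 0.529). Of all 12306 genes, 0.0% passed in each of these comparisons, and at an unadjusted p under 0.05 there were 455, 723 and 977 genes, or 3.7%, 5.88% and 7.94%. The log2 fold change was below 0 for 9 of 10 markers in females (median -0.23, all tested genes 0.01), for 10 of 10 in males (median -0.16, all tested genes -0.02) and for 10 of 10 over both sexes (median -0.20, all tested genes -0.0049). The shares of all tested genes below 0 were 47.9%, 53.4% and 51.3% in the same order. The medians depended on single livers: that in females was -0.15 without female breeder 6, as it was without the 3 libraries (8 of 10 below 0), and that in males was -0.07 without male non-breeder 1. Without the 3 libraries the median was -0.13 in males and -0.16 over both sexes, with 9 of 10 below 0 in each. In bulk liver RNA, fewer endothelial cells and less of these transcripts per cell cannot be told apart.

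Among the junction proteins, PECAM1, an adhesion molecule of the endothelial surface, had the smallest adjusted p of the 10 over both sexes. Its level was 15.1 to 29.6 CPM (median 22.9) in female breeders, against 22.2, 25.8, 30.6, 35.4 and 24.96 CPM in female non-breeders. In male breeders it was 18.6 to 26.0 CPM (median 22.3), against 23.0 to 27.4 CPM (median 26.6) in male non-breeders. The groups overlapped in both sexes, although 5 of 6 male breeders lay below the lowest male non-breeder. Over both sexes the log2 fold change was -0.25 ± 0.10 (SE, 95% interval -0.46 to -0.03, edgeR adjusted p = 0.529), and it was -0.17 without the 3 libraries. CDH5, the cadherin that holds endothelial cells together, averaged 65.7 ± 23.2 CPM (SD, n = 6) in female breeders and 77.6 ± 13.9 CPM (n = 5) in female non-breeders. Its averages were 65.1 ± 14.3 CPM (SD, n = 6) in male breeders and 72.6 ± 18.4 CPM (n = 6) in male non-breeders, again with overlap. The log2 fold change of CDH5 over both sexes was -0.20 ± 0.15 (edgeR adjusted p = 0.792).

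Of the VEGF receptors, FLT1 had groups that did not overlap in females and KDR had not, but the receptors were not tested against each other. FLT1, which binds VEGF strongly and signals weakly, was 6.37, 17.7, 19.2, 22.8, 30.0 and 33.0 CPM in female breeders, against 33.3, 33.98, 34.4, 34.5 and 34.96 CPM in female non-breeders. Every female breeder was thus below every female non-breeder, and the non-breeders differed by only 1.05-fold among themselves. FLT1 was the 1 marker of 10 whose groups did not overlap in this comparison, while 38 of 12306 genes (0.309%) did not overlap. In males, 0 of 10 markers and 0.431% of all genes did not overlap. The log2 fold change was -0.67 ± 0.34 (SE, 95% interval -1.37 to 0.03, edgeR adjusted p = 0.9996). Without female breeder 6, the lowest library, it was -0.48, and without the 3 libraries standing apart it was also -0.48 (edgeR adjusted p = 0.873). In males, FLT1 was 13.5 to 30.8 CPM (median 27.3) in breeders, against 6.42 to 36.1 CPM (median 26.6) in non-breeders. These ranges overlapped almost fully, with a log2 fold change of -0.04 ± 0.32. Leaving out male non-breeder 3 moved it to -0.24. The difference between the status differences of the sexes was -0.63 ± 0.47 for FLT1 (females minus males, edgeR adjusted p = 1.00), so that a sex-dependent difference was not detectable. KDR, the main signalling receptor for VEGF in endothelium, averaged 56.8 ± 19.9 CPM (SD, n = 6) in female breeders and 58.4 ± 10.99 CPM (n = 5) in female non-breeders, and 51.1 ± 7.50 CPM (n = 6) in male breeders and 55.9 ± 14.2 CPM (n = 6) in male non-breeders. Its log2 fold change over both sexes was -0.08 ± 0.14.

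The Tie receptors and endoglin had log2 fold changes near the median of the 10 markers over both sexes (-0.20). TEK, the receptor that keeps vessels quiescent when bound by angiopoietin 1, was 15.5 to 23.8 CPM in female breeders, against 18.8 to 28.5 CPM in female non-breeders, and 16.0 to 24.6 CPM in male breeders, against 16.0 to 26.6 CPM in male non-breeders. TIE1, an orphan receptor that pairs with TEK, was 14.0 to 23.6 CPM in female breeders, against 22.3 to 27.0 CPM in female non-breeders, and 15.3 to 22.2 CPM in male breeders, against 15.4 to 28.9 CPM in male non-breeders. All 6 female breeders had less TIE1 than the average of the female non-breeders, but only 3 of them lay below the lowest non-breeder. The log2 fold changes over both sexes were -0.18 ± 0.11 for TEK and -0.20 ± 0.11 for TIE1. ENG was 59.9 to 99.5 CPM (median 78.9) in female breeders, against 92.8, 100.01, 86.7, 124 and 81.1 CPM in female non-breeders. In male breeders ENG was 58.9 to 84.1 CPM (median 76.2), against 66.5 to 99.6 CPM (median 82.2) in male non-breeders. Both pairs overlapped. The log2 fold change of ENG over both sexes was -0.22 ± 0.10 (95% interval -0.43 to -0.0054, edgeR adjusted p = 0.602), and -0.16 without the 3 libraries. PECAM1 and ENG were the 2 markers lower at an unadjusted p under 0.05 over both sexes, where 3.69% of all genes were lower at that level. Without the 3 libraries these were FLT1 (-0.30) and LYVE1 (-0.48) instead.

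Of the sinusoidal receptors, LYVE1 had the largest log2 fold change over both sexes among the 10 markers and the widest interval. It was 4.06 to 23.2 CPM (median 14.5) in female breeders, against 17.5, 21.4, 20.6, 27.0 and 9.94 CPM in female non-breeders. In male breeders it was 2.31 to 11.5 CPM (median 9.09), against 3.73 to 18.4 CPM (median 13.5) in male non-breeders. The groups overlapped in both sexes, and over all livers LYVE1 spanned 11.7-fold. The log2 fold change over both sexes was -0.57 ± 0.28 (95% interval -1.15 to 0.01, edgeR adjusted p = 0.635). Without the 3 libraries it was -0.48 (edgeR adjusted p = 0.481). STAB1, which takes up modified lipoproteins and extracellular debris, was 101 to 237 CPM (median 181) in female breeders, against 172, 169, 193, 137 and 235 CPM in female non-breeders. In male breeders it was 98.6 to 192 CPM (median 159), against 111 to 220 CPM (median 162) in male non-breeders. STAB1 and CLEC4G had the fold changes nearest to 0, -0.07 ± 0.16 and -0.04 ± 0.12 over both sexes. CLEC4G averaged 61.7 ± 14.0 CPM (SD, n = 6) in female breeders and 60.4 ± 10.3 CPM (n = 5) in female non-breeders, and 54.0 ± 11.4 CPM (n = 6) in male breeders and 57.9 ± 11.1 CPM (n = 6) in male non-breeders.

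**Figure D2:**
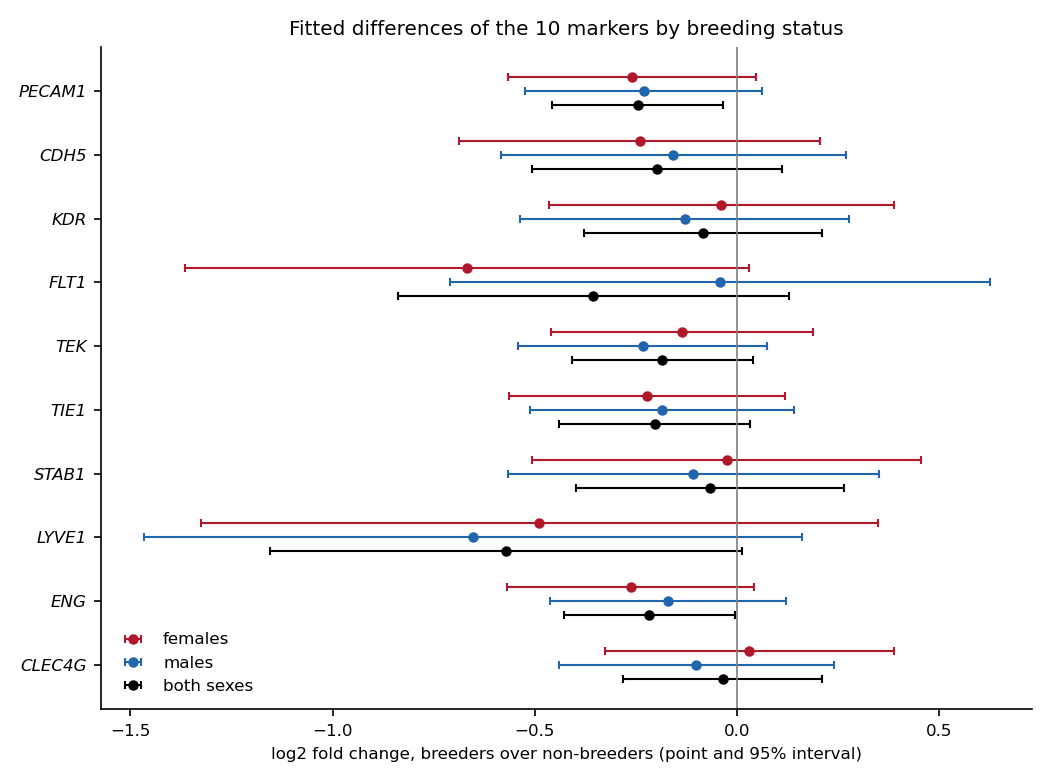
Fitted log2 fold change of each marker, breeders over non-breeders, with its 95% interval, in females (red), males (blue) and both sexes (black). All points but CLEC4G in females (0.03) lie below 0, and all intervals reach 0 except those of PECAM1 and ENG over both sexes.

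Read length could be held constant in males only. Within the longer reads, 3 male breeders stood against 6 male non-breeders, and the log2 fold changes of all 10 markers were again below 0 (-1.02 for LYVE1 to -0.21 for KDR), with a median of -0.33 against -0.16 over all males. None passed (smallest adjusted p 0.991, edgeR). The 3 breeders here were male breeders 4, 5 and 6. In male breeders 5 and 6 all 10 markers lay below the median of all livers. Male breeder 5 and male non-breeder 3 are libraries standing apart, and no fit within the longer reads left them out. Markers of other cells were measured beside these differences, and none of them passed. The 14 tested markers of macrophages and Kupffer cells had a median log2 fold change of -0.43 in male breeders against male non-breeders, 13 of them below 0, and the 14 markers of stellate cells and fibroblasts one of -0.38, all below 0. The summed level of the 15 macrophage genes was 276 to 626 CPM in male breeders, against 450 to 717 CPM in male non-breeders, and that of the stellate genes was 184 to 264 CPM in male breeders, against 253 to 362 CPM in male non-breeders. CD163, a defining macrophage marker, had 1 read in all libraries together. In females the macrophage sums were 288 to 690 CPM in breeders, against 429 to 721 CPM in non-breeders, and the stellate sums were 227 to 507 CPM in breeders, against 227 to 498 CPM in non-breeders. The median log2 fold change of the macrophage genes was -0.01 in females. The 7 tested erythroid markers had a median of -0.73 in females, all below 0, with summed levels of 97.5 to 511 CPM in breeders, against 245 to 599 CPM in non-breeders. The 4 tested skeletal muscle markers had a median of 1.99 in females, all above 0, with summed levels of 1.93 to 22.1 CPM in breeders, against 0.875 to 3.53 CPM in non-breeders. The 5 tested lymphocyte markers had a median of -0.65 in males, 3 of them below 0, with summed levels of 7.97 to 11.5 CPM in breeders, against 9.18 to 20.3 CPM in non-breeders. Of 10 hepatocyte markers, 8 were below 0 in females (median -0.25), 9 in males (median -0.06) and 9 over both sexes (median -0.15). The part of these cells in the marker differences was not tested.

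The second question was whether female and male livers differed. Of the 10 markers, 9 were above 0 in females against males in breeders (median log2 fold change 0.12, all tested genes 0.02) and 9 in non-breeders (median 0.14, all tested genes 0.0034), where 54.4% and 50.5% of all tested genes were above 0. These medians too depended on single livers, being 0.045 in breeders without female breeder 1 and 0.063 in non-breeders without female non-breeder 4. None passed the edgeR test in either status, in which 6 genes (0.0488%) and 4 genes (0.0325%) of 12306 passed, and none of the 10 separated the sexes without overlap, as 0.349% and 0.284% of all genes did. At an unadjusted p under 0.05 there were 725 and 634 genes (5.89% and 5.15%) and 0 of the markers. LYVE1 again had the largest differences. In breeders it was 4.06 to 23.2 CPM (median 14.5) in females and 2.31 to 11.5 CPM (median 9.09) in males, with a log2 fold change of 0.77 ± 0.39 (95% interval -0.05 to 1.58, edgeR adjusted p = 0.859). In non-breeders the log2 fold change was 0.60 ± 0.40 (edgeR adjusted p = 0.866). Of 6 female breeders, 5 lay above the average of male breeders. Without the 3 libraries, the LYVE1 values were 0.77 in breeders (adjusted p = 0.342) and 0.41 in non-breeders (adjusted p = 0.996, edgeR). Within the shorter reads, 6 female against 3 male breeders, LYVE1 was 0.47, and 5 of the 10 markers were above 0 and 5 below, with a median of 0.01. The signs of CDH5, TEK, TIE1 and ENG changed there. In breeders, all 14 macrophage and all 14 stellate markers were above 0 in females against males (median 0.29 and 0.53), with summed levels of 288 to 690 and 227 to 507 CPM in female breeders, against 276 to 626 and 184 to 264 CPM in male breeders, and their part in the marker differences was not tested.

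The status differences did not differ detectably between the sexes, since of 10 markers 5 were above 0 and 5 below in the difference of the status differences (females minus males), between -0.63 (FLT1) and 0.16 (LYVE1), where 47.1% of all genes were below and 52.9% above. None passed, with 0 genes called among all tested and 228 (1.85%) at an unadjusted p under 0.05 (edgeR). Age, 2.4 to 4.1 years over all animals, was fitted as a slope beside the groups. None of the markers passed, the smallest edgeR adjusted p being 0.660 for TIE1, with 0.18 ± 0.12 log2 units per year (SE). Of all tested genes, 0.0% passed, and 987 (8.02%) had an unadjusted p under 0.05.

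Among the markers, FLT1 and LYVE1 differed most between single livers. In the 3 libraries standing apart, FLT1 was 6.37 CPM (female breeder 6), 13.5 CPM (male breeder 5) and 6.42 CPM (male non-breeder 3), which is 0.279, 0.473 and 0.236 of the median of the remaining livers of each group. LYVE1 was 4.06, 2.31 and 3.73 CPM in the same order, or 0.272, 0.232 and 0.219 of those medians. In male non-breeder 3, no other marker was the lowest of its group. Female breeder 6 was also the lowest of its group in PECAM1 (0.637 of the median of the others), CDH5 (0.669), KDR (0.602), TEK (0.724) and ENG (0.746), and male breeder 5 in CDH5 (0.785), KDR (0.727) and CLEC4G (0.849), so that FLT1 and LYVE1 were the markers under 0.5 in all 3 libraries and the others were lower by less, or not at all. Averaged over the other 8 markers, log2 CPM minus the median of all livers was 0.08 in male non-breeder 3, -0.27 in female breeder 6 and -0.31 in male breeder 5, whereas FLT1 was at -2.13, -2.15 and -1.07. STAB1, which enters this average, was high in female breeder 6 (237 CPM, 1.70-fold of the median of the others) and in male non-breeder 3 (202 CPM, 1.61-fold). Correlations with the first principal component were -0.88 for FLT1 and -0.77 for LYVE1 over 23 libraries, and -0.36 and -0.44 over the 20 without these 3.

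**Figure D3:**
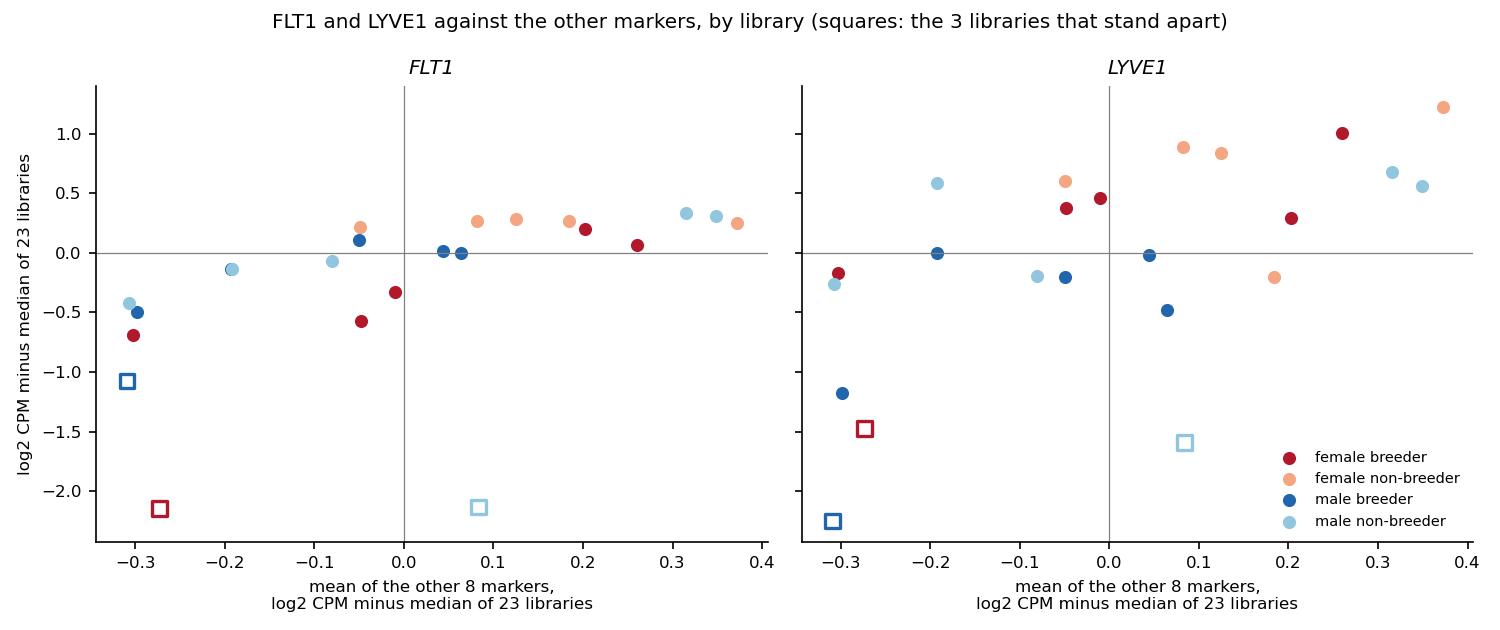
FLT1 (left) and LYVE1 (right) in each liver against the mean of the other 8 markers, both axes as log2 CPM minus the median of 23 libraries, with open squares for the 3 libraries standing apart. In those 3 libraries FLT1 lies between -2.15 and -1.07, and the mean of the other 8 markers between -0.31 and 0.08.

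The 59 tested endothelial genes were the 10 markers, 33 further genes of endothelium in general and 16 of sinusoidal endothelium. In the 3 libraries standing apart, their share of low genes was near that of all tested genes. The share of the 59 under 0.5 of the median of the remaining group was 13.6% in male non-breeder 3, 13.6% in female breeder 6 and 8.47% in male breeder 5, where 16.9%, 10.9% and 6.05% of all tested genes were. Without FLT1 and LYVE1 these shares were 10.5%, 10.5% and 5.26% of 57 genes. Genes over 2 times that median made up 10.2% of the 59 in male non-breeder 3, where 11.1% of all tested genes were. The shares were further apart in female breeder 6 (1.69% of the 59, 5.69% of all tested genes) and male breeder 5 (1.69% and 3.5%). Among the listed genes, chosen here after their values were seen, ERG, a transcription factor that maintains endothelial identity, was under 0.5 in all 3 libraries. Its level was low throughout, at 1.03 CPM in female breeder 6, 1.08 CPM in male breeder 5 and 1.28 CPM in male non-breeder 3. The medians of the remaining livers of these groups were 2.20, 3.06 and 2.79 CPM. MAF, a transcription factor of sinusoidal endothelium that other cells also make, was 3.84-fold in female breeder 6 and 4.64-fold in male breeder 5. SOX18, a transcription factor of endothelium, was 3.75-fold in male non-breeder 3. Outside the 3 libraries standing apart, ERG was under 0.5 in female non-breeder 5. MAF was over 2 times the median of the remaining group in female breeder 5 and male breeder 6, and SOX18 in female non-breeder 4. The median over the 59 genes was 1.09 of the group median in male non-breeder 3, 0.724 in female breeder 6 and 0.896 in male breeder 5.

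Across livers, most markers varied together. Over the 45 pairs of markers, the median Pearson r of log2 CPM was 0.54 (median Spearman rho 0.54), 40 pairs were above 0 and 24 above 0.5, whereas over all pairs of tested genes the median was -0.0045 and 7.38% were above 0.5. The points share libraries, depth and scaling. The median was 0.59 without the 3 libraries standing apart, 0.49 for deviations from group means, 0.64 within the 14 libraries of longer reads, 0.49 within the 9 of shorter reads, and 0.57 when the 2 libraries farthest from the median of 1 gene of each pair were left out. ENG and KDR followed the other 9 markers most (r = 0.86 and 0.84 with their mean), and STAB1 least (0.088).

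Each marker was also tested against all other 12305 genes by permutation of the libraries (100000 permutations, two-sided, Benjamini-Hochberg over these genes). Of the 45 pairs, 13 passed in both directions by Pearson's r and 4 by Spearman's rho. The 4 pairs were CDH5 with KDR, CDH5 with FLT1, KDR with FLT1 and KDR with LYVE1. The junction cadherin CDH5 passed with 5 of the 9 other markers, and 1.76% of all genes passed with it (also 5 of 9 by Spearman's rho, against 0.983%). PECAM1 passed with 4 of 9 (0.788% of all genes), ENG with 4 of 9 (0.244%), KDR with 5 of 9 (0.723%), TEK with 2 of 9 (0.187%) and CLEC4G with none (0.0%). FLT1 and LYVE1 passed with 5 of 9 each, but with 35.1% and 29.2% of all genes by Pearson's r, against 0.406% and 4.27% by Spearman's rho, and 3 of 9 markers each by the rank measure. By Spearman's rho, KDR passed with 3 of 9 (2.67%), STAB1 with 1 (7.08%), and PECAM1, TEK, TIE1 and ENG with none (0.146%, 0.0569%, 0.0813% and 0.0244%). TIE1 passed with 1 of 9 by Pearson's r (0.114%). By Pearson's r over all 23 libraries, the pair PECAM1 and ENG was the closest, with r = 0.83 and rho = 0.72. The permutation test gave an adjusted p of 0.0103 (r) and 0.0564 (rho) over the genes tested with PECAM1. Over those tested with ENG it was 0.0123 and 0.144 (same permutation test). Its r was 0.73 without the 2 farthest libraries, 0.79 within longer and 0.94 within shorter reads. By rank, CDH5 and FLT1 were the closest pair (rho = 0.80, r = 0.76). Without the 3 libraries standing apart, r was 0.79 for PECAM1 and ENG and 0.84 for TIE1 and STAB1. CDH5 and KDR had r = 0.79 and rho = 0.78 (permutation test, adjusted p = 0.00769 and 0.0214 over the genes tested with CDH5, 0.0318 and 0.0269 over those tested with KDR), 0.72 without the 2 farthest libraries, 0.89 within longer and 0.69 within shorter reads. FLT1 and LYVE1 had r = 0.77, which was 0.52 without the 3 libraries.

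**Figure D4:**
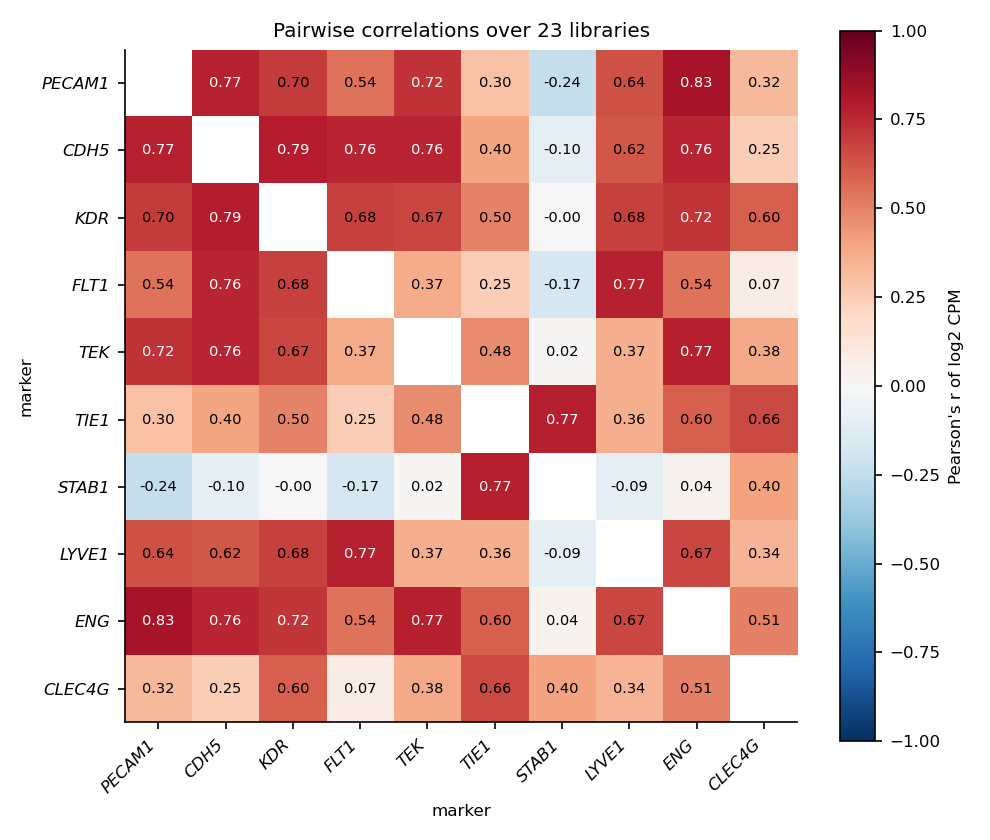
Pearson's r of log2 CPM over 23 libraries for each pair of markers, coloured from blue (-1) to red (1). The 5 pairs below 0 all include STAB1, whose r is between -0.24 and 0.40 to all markers but TIE1 (0.77).

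STAB1 had low correlations with most other markers over all livers, and several of these turned with the libraries used. Its r was -0.24 with PECAM1 (0.09 within longer and -0.65 within shorter reads), -0.10 with CDH5 (0.33 and -0.60, and 0.10 without the 3 libraries) and -0.09 with LYVE1 (-0.01 and -0.26, and 0.16 without the 3 libraries). With CLEC4G it was 0.40 (rho = 0.44), which did not pass. With TIE1, r was 0.77 and rho 0.75 (permutation test, adjusted p = 0.00345 and 0.00342 over the genes tested with STAB1). Over the genes tested with TIE1 the adjusted p of the same permutation test was 0.0369 for r and 0.0889 for rho, so that by rank the pair passed in 1 direction only. The value for TIE1 held without the 3 libraries (r = 0.84), without the 2 farthest (0.68), within longer reads (0.86) and within shorter reads (0.67). The scavenger receptor STAB2, its closest relative and a gene of the sinusoidal list, followed it more closely still, with r = 0.87 and rho = 0.91 (permutation test, adjusted p = 0.00135 and 0.00198 over the genes tested with STAB1, the other direction not being tested). For STAB1 and STAB2, r was 0.89 without the 3 libraries, 0.85 without the 2 farthest, 0.88 for deviations from group means, 0.86 within longer reads and 0.90 within shorter reads. STAB2 was 69.2 to 161 CPM in female breeders, against 82.1 to 109 CPM in female non-breeders, and 55.1 to 100.2 CPM in male breeders, against 52.5 to 157 CPM in male non-breeders, so that livers of 1 group spanned most of the range. Of all genes, 7.14% passed with STAB1, and the closest of them was SNRNP70, a splicing protein (r = 0.90). With macrophage markers, STAB1 had a median r of -0.23 (0 of 14 above 0.5), and LYVE1 one of 0.22 (5 of 14). Of all tested genes, 8.86% were above 0.5 with STAB1 and 16.8% with LYVE1.

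Genes outside the 10 were ranked by their r with the mean of the markers' z scores over the 23 libraries. The 8 closest were NRP2, a co-receptor for VEGF (0.87), SORCS2, a receptor of the sortilin family (0.86), GPR116, an adhesion receptor of endothelium (0.86), ECM1, a secreted matrix protein (0.84), FZD4, a receptor for Wnt and norrin (0.82), OLFML3, a secreted glycoprotein (0.81), ESAM, an endothelial junction protein (0.79), and MRC1, the mannose receptor of sinusoidal endothelium and macrophages (0.78). Each of the 8 had an r between 0.75 and 0.90 without the 3 libraries. The 4 at the other end were NMRAL1 (-0.80), BUD31 (-0.73), METTL21A (-0.73) and PSMG3 (-0.73). The further endothelial lists were close to the marker mean as well, with a median r of 0.42 for the 33 genes of endothelium in general (14 above 0.5) and 0.42 for the 16 sinusoidal genes (7 above 0.5), against 0.0069 for all tested genes, of which 3.24% were above 0.5. Macrophage markers had a median r of 0.32 (5 of 14 above 0.5), hepatocyte markers 0.30 (0 of 10), ligands and co-receptors of the marker receptors 0.26 (3 of 15), lymphatic endothelial markers 0.26 (1 of 4), lymphocyte markers 0.19 (0 of 5), junction and flow partners 0.10 (3 of 14), erythroid markers 0.08 (0 of 7), stellate cell markers 0.02 (0 of 14), cholangiocyte markers -0.01 (0 of 6) and skeletal muscle markers -0.17 (0 of 4). With the macrophage list, PECAM1, which macrophages also carry, had a median r of 0.57 (8 of 14 above 0.5). CDH5 followed with 0.49 (7 of 14), TEK with 0.48 (7 of 14) and ENG with 0.47 (5 of 14). Of all tested genes, 4.34%, 6.57%, 2.08% and 2.28% were above 0.5 with these markers, in the same order. With the 33 further genes of endothelium in general, the median r was 0.47 for PECAM1, 0.44 for CDH5, 0.41 for TEK and 0.47 for ENG. With the 16 sinusoidal genes it was 0.52, 0.47, 0.40 and 0.45, in the same order.

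**Figure D5:**
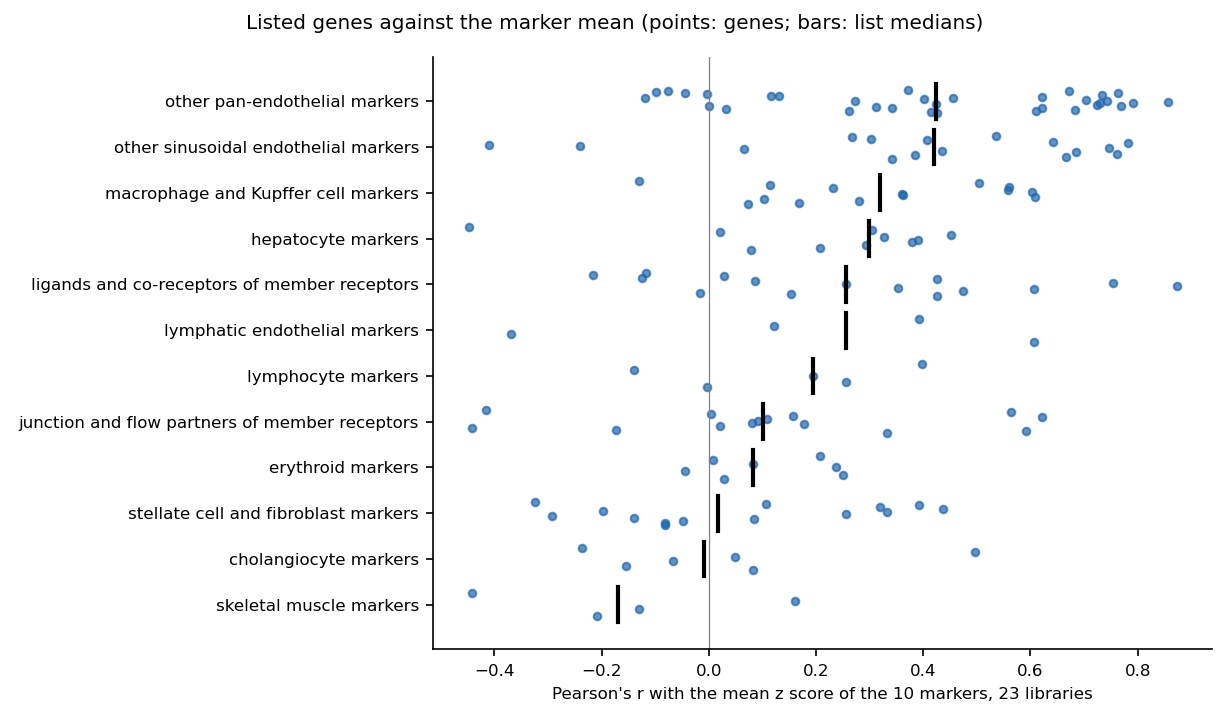
Pearson's r of each listed gene with the mean z score of the 10 markers over 23 libraries, with 1 point per gene and a black bar at the median of each list. The 2 further endothelial lists have the highest medians (0.42 each), followed by the macrophage list (0.32).

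In the lists of related genes, 0 passed the edgeR test in breeders against non-breeders, in either sex or over both. Of the 33 further endothelial genes, 24 were below 0 over both sexes (median log2 fold change -0.11), and those with the smallest p were PLVAP, a component of fenestral diaphragms (-0.47 ± 0.18, adjusted p = 0.485), S1PR1, a sphingosine 1-phosphate receptor (0.41 ± 0.19, adjusted p = 0.599), and CD93 (-0.33 ± 0.16, adjusted p = 0.602). Of the 16 sinusoidal genes, 13 were below 0 (median -0.17). WNT9B, a Wnt ligand that acts on hepatocytes around central veins in mouse, was at -0.55 ± 0.22 (edgeR adjusted p = 0.507). BMP2, a regulator of hepcidin, was at -0.32 ± 0.16 (edgeR adjusted p = 0.633), and MAF at 0.72 ± 0.30 (edgeR adjusted p = 0.529). MAF was 252 CPM in female breeder 6, against a median of 65.5 CPM in the other female breeders. In male breeder 5 it was 253 CPM, against 54.7 CPM in the other male breeders. Both libraries stood apart, and the MAF fold change without them is not given here. Of 15 tested ligands and co-receptors, 12 were below 0 (median -0.16), with NRP2 at -0.31 ± 0.15 and TGFB1, a ligand in the endoglin pathway, at -0.25 ± 0.13. Junction and flow partners of the receptors were split 7 and 7 (median 0.02). The sinusoidal lectins CLEC4M and CD209 had 0 reads in all 23 libraries.

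FCN3 (ficolin 3), a lectin of the complement system on the sinusoidal list, was the 1 listed gene that passed between the sexes. Its level was low throughout. It was 0.599 to 1.81 CPM (median 1.24) in female breeders, against 2.22 to 5.00 CPM (median 2.76) in male breeders, without overlap. Of all tested genes, 0.349% did not overlap in this comparison and 0.0488% passed. The log2 fold change, females over males in breeders, was -1.36 ± 0.24 (edgeR adjusted p = 0.0361). In non-breeders it was 1.61 to 2.22 CPM in females, against 2.15 to 3.44 CPM in males, with a log2 fold change of -0.40 ± 0.25 (edgeR adjusted p = 0.856), and the difference between the statuses was -0.95 ± 0.35 (adjusted p = 1.00). The size held within the shorter reads (-1.50, edgeR adjusted p = 1.00) and without the 3 libraries (-1.31, adjusted p = 0.130), but the call lay close to the threshold, since 12 of the 23 fits without 1 library gave an adjusted p above 0.05 (0.0118 to 0.125 over all 23, log2 fold change -1.51 to -1.17).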

How the data were processed

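Livers of 23 naked mole-rats were profiled by poly(A) RNA-seq (TruSeq RNA v2, strand not marked, single-end). The authors aligned the reads with STAR 2.4.1d, discarded reads mapped to several places, counted with HTSeq on transcripts of this species placed on its public genome, and deposited raw read counts per gene. Reads of overlapping genes on opposite strands cannot be told apart in such libraries. Of 16339 rows, 803 had no count and 25 carry dates in place of symbols. Library totals are in the report; their counting error is small beside the spread between animals. No 2 libraries agreed within sampling noise (smallest chi-square per degree of freedom 30.7).

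Groups were taken from the labels, in which each sample has an animal number of its own, so p-values measure the spread between animals. They treat the animals as independent, although by the study's methods some were litter mates, some were partners and colonies were shared. From the counts, edgeR 4.0.16 (R 4.3.3) was run with filterByExpr (minimum count 10, minimum total 15), TMM scaling and 1 robust quasi-likelihood fit of all 23 libraries with 1 mean per group, as in a shared-spread design; Benjamini-Hochberg adjustment ran over 12306 genes at a threshold of 0.05. Each standard error was the size of the log2 fold change divided by the root of its F statistic, from which 95% intervals were built. Log2 CPM used a prior count of 2. Correlations and their permutation tests were run in Python 3.11.15. Alternatives were DESeq2 1.42.0 (test and size factors), limma 3.58.1 (voom with library weights), upper-quartile scaling, no filter, age added as a covariate, a stricter threshold (0.01), fits of the compared groups alone, 1 read length class, and fits without the 3 libraries standing apart or without each library in turn. The edgeR test was checked on simulated data for the comparisons of status and of sex, and the permutation test for Pearson's r. The difference of status differences, the age slope, DESeq2 and limma voom were not checked in this way.

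The 10 markers and the lists of related genes were chosen with earlier results of these data known. Named beside the markers are the 8 genes most and the 4 least like the marker mean, list genes past the threshold and up to 3 of smallest p per list. Read lengths come from the study's library list. All 10 symbols matched 1 RefSeq gene each.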

Additional observations from a re-analysis of the deposited data

Results flagged for a closer look

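In each of the 40 sets of 1 marker in 1 group, the highest and the lowest liver were compared with the spread of the group, and chance alone puts about 1 in 20 groups past the limit used. One liver was past it. CLEC4G, the sinusoidal lectin, was 75.9 CPM in male breeder 3, against 43.6 to 54.8 CPM in the other 5 male breeders, the gap to the next liver being 0.654 of the whole range of the group.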

How the results depend on the processing

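None of the 10 markers passed under any alternative in any of the 6 comparisons (smallest adjusted p 0.336, for LYVE1 over both sexes without male non-breeder 3, edgeR). The median log2 fold change of the markers ranged, without each library in turn, between -0.29 and -0.15 (females), -0.23 and -0.07 (males) and -0.24 and -0.16 (both sexes) in breeders against non-breeders, and between 0.045 and 0.18 (breeders) and 0.063 and 0.23 (non-breeders) in females against males. Within 1 read length class it was -0.33 in males and 0.0074 in breeders by sex. The median r was 0.49 to 0.64 under its alternatives. Fold changes near 0 changed sign under some settings. For breeders against non-breeders these were KDR in females (0.10 in limma voom, 0.064 without the 3 libraries standing apart) and CLEC4G (0.0037 in males and 0.0058 over both sexes without the 3 libraries). For females against males they were, within the shorter reads in breeders, CDH5 (-0.21), TEK (-0.11), TIE1 (-0.049) and ENG (-0.0076), and KDR in non-breeders in limma voom (-0.027). The cause was not tested. Without each library in turn, breeders against non-breeders ranged between -0.20 and 0.075 (KDR), -0.12 and 0.094 (STAB1) and -0.064 and 0.14 (CLEC4G) in females, -0.24 and 0.083 (FLT1) in males, and -0.10 and 0.020 (CLEC4G) over both sexes. Females against males ranged between -0.16 and 0.12 (CDH5), -0.0024 and 0.26 (KDR) and -0.023 and 0.12 (TEK) in breeders, and between -0.050 and 0.18 (KDR) and -0.047 and 0.11 (CLEC4G) in non-breeders. The difference of status differences of LYVE1 ranged between -0.050 and 0.35.

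Over all genes, edgeR called 0 in each comparison of breeders against non-breeders and 0 in the difference of status differences. There DESeq2 called 5 (females), 2 (males), 36 (both sexes) and 1 (the difference), and limma voom 0, 1, 5 and 0. Fits without 1 library called 0 to 2 over both sexes and 0 to 1 in males. In females against males it called 6 in breeders and 4 in non-breeders, where DESeq2 called 24 and 6. Fits of the 2 groups alone called 3 and 2, and in breeders 3 were called without the 3 libraries, at a threshold of 0.01 and in the smallest fit without 1 library, 4 without the filter and 1 within the shorter reads. FCN3, whose alternatives were added after the data were seen, lost its call in 5 of 10 other settings, among them limma voom (adjusted p = 0.0551). No paired analysis was possible because the labels do not give the litter, colony or partner of each animal. By the study's methods, animals of different groups can be litter mates or breeding partners. With 5 or 6 livers a group, 95% intervals in females ran between -0.57 and 0.05 (PECAM1) at the narrow end and between -1.37 and 0.03 (FLT1) or -1.33 and 0.35 (LYVE1) at the wide end.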

Other observations

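The tested genes with the highest r to each marker were looked up after the data were seen. They were CSGALNACT1 for PECAM1 (r = 0.86), NRP2 for KDR (0.81), FOXO3 for FLT1 (0.93), SNRNP70 for STAB1 (0.90), SLCO3A1 for LYVE1 (0.88) and PRKCH for ENG (0.86), of which only NRP2 is on a list of related genes. The rho of FLT1 with FOXO3 was 0.68. The closest to CDH5 were SHE, an adaptor protein on the endothelial list (r = 0.86, rho = 0.85), and F8, coagulation factor VIII, which sinusoidal endothelium secretes (r = 0.82, rho = 0.85). TEK was closest to FLI1, a transcription factor of endothelial and blood cells (r = 0.87, rho = 0.87), and to MRC1 (r = 0.84, rho = 0.82, and 0.83 without the 3 libraries standing apart). TIE1 was closest to PDE2A, a cyclic nucleotide phosphodiesterase (r = 0.88, rho = 0.85, and 0.88 without the 3 libraries), and to NPR1, the receptor for atrial natriuretic peptide (r = 0.80, rho = 0.79). Those named with CDH5, TEK and TIE1 had an adjusted p between 0.00769 and 0.0308 (permutation test over 12305 genes). The highest r of CLEC4G was 0.70 (TAGAP, adjusted p = 0.677), so that this lectin had no partner past the threshold.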
